A study of Mus musculus with 15 samples.

Results

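The phagocyte NADPH oxidase carries electrons from cytosolic NADPH across a membrane to oxygen and so produces superoxide, the first of the oxidants with which neutrophils and monocytes kill engulfed microbes. Its membrane part is a pair of proteins, gp91phox (Cybb), which holds the electron-carrying groups, and p22phox (Cyba), its partner. On activation the cytosolic proteins p47phox (Ncf1) and p40phox (Ncf4) move to the membrane with the GTPase Rac2, the form of Rac used by the oxidase of neutrophils. Transcripts of these 5 genes were examined in whole blood. The members were taken by symbol among the 55416 Ensembl genes counted in each library, and 5 of 5 were found.

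Whole blood of C57BL/6 mice, collected per animal by cheek bleeding, gave 15 libraries in 3 groups of 5 samples. The labels give every group, untreated mice included, the same tongue transplantation of 1000000 4MOSC1 cells, a murine line of oral squamous carcinoma with a tobacco signature, and 10 days of growth. By the study's methods, the cells were transplanted into female mice aged 4 to 6 weeks. Wild-type C57BL/6 mice are listed there beside gene-modified strains, and the study describes the latter for no blood library. Untreated mice had neither antibody nor surgery. The early and late groups received 2 doses of αCTLA-4, an antibody that blocks the checkpoint receptor CTLA-4, and a neck dissection, which removes the lymph nodes and lymphatics of the neck. Early neck dissection (ND) was set on day 6 and late ND on day 11 after transplantation. Blood of day 10, the day that goes with the libraries, would precede the late operation. The study also describes the sampling as following the delayed operation, so early and late name the groups here, whichever holds. In whole blood, fewer cells of a type and less RNA per cell cannot be told apart.

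The libraries held between 5527108 and 7182346 gene counts in the early group, between 7849602 and 13924361 in the late group and between 5862888 and 10796099 in untreated mice. Several library measures moved with the groups. The 4 adult hemoglobin genes took from 38.3 to 64.1% of gene counts in early, from 14.9 to 29.3% in late and from 31.6 to 61.7% in untreated libraries. Pairs aligned to several places made up from 66.4 to 75.2% of all pairs in early and from 44.1 to 57.9% in late libraries. In untreated 2, late 2 and late 3 the 18S ribosomal gene Rn18s-rs5 had from 313 to 766 CPM (counts per 1000000) of the library total, while the remaining 12 libraries had 13402 or more. Genes of skin and sebaceous glands stood out in untreated 5, early 3 and late 5, where the summed level of the 8 listed genes was from 565 to 1035 CPM. All other CPM values follow scaling of the libraries by the trimmed mean of M-values (TMM), which sets most genes level between libraries. The part of these library measures in the results below was not tested, apart from fits that left out the libraries named here or the hemoglobin genes and Rn18s-rs5.

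Compared per length, as CPM per kb of the canonical transcript, Cyba was the most abundant of the members and Cybb the least abundant in each of the 3 groups. Cyba (ENSMUSG00000006519), on chromosome 8 of GRCm39 from 123150422 to 123159706 with a canonical transcript of 793 bases, had a level of 144 CPM per kb ± 11.6 (SD, n = 5) in untreated blood. Rac2 (ENSMUSG00000033220), on chromosome 15 from 78443367 to 78457429 with 3484 bases, followed at 109.8 CPM per kb ± 13.8 (SD, n = 5) and lay below Cyba in 15 of 15 libraries. Ncf4 (ENSMUSG00000071715) lies on the same chromosome from 78128982 to 78146784. Its transcript of 1483 bases was at 58.6 CPM per kb ± 6.02 (SD, n = 5). Ncf1 (ENSMUSG00000015950), on chromosome 5 from 134248907 to 134258479 with 2721 bases, was at 54.8 CPM per kb ± 9.69 (SD, n = 5). On this scale these neighbours did not differ beyond their spread, with Ncf4 above Ncf1 in 9 of 15 libraries. Cybb (ENSMUSG00000015340), on chromosome X from 9301491 to 9354010 with 4759 bases, was at 27.8 CPM per kb ± 7.47 (SD, n = 5) and below Ncf1 in 15 of 15 libraries. The order rests on the transcript chosen. Over the length of all annotated exons, which is 2305 bases for Cyba, Rac2 led with a mean of 107 CPM per kb over the 15 libraries, Cyba followed at 53.4 CPM per kb, Ncf1 was at 44.7 CPM per kb and above Ncf4, at 39.5 CPM per kb, in 14 of 15 libraries, and Cybb was again the lowest member at 28.3 CPM per kb.

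The genes lie on 4 chromosomes, and the annotation places other genes opposite some of their exons. For Cyba 0.1835 of the exon bases lie opposite Il17c, for Ncf1 0.1567 opposite Gtf2ird2, for Cybb 0.0523 opposite Xk and for Rac2 0.0242 opposite Gm63166, while Ncf4 has none. The strand setting of the counting is not given in the sources used here, so reads from such a stretch cannot be assigned with certainty. Il17c had 122 counts over the 15 libraries against 20066 for Cyba, and Xk 578 against 24846 for Cybb. Gtf2ird2 had 10728 counts against 26169 for Ncf1, which leaves the counts of Ncf1 the less certain ones.

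Cyba, Ncf4 and Rac2 were higher in every late than in every early library and Cybb was not, so the 250 bases before the canonical start of these 4 genes are shown, read from the GRCm39 genome and written 5′ to 3′ on the strand of the gene. They were searched on both strands for GAGGAA, the core of the PU box, which the myeloid factor PU.1 is known to bind. Capitals mark each match, written as TTCCTC where it lies on the opposite strand. Ncf4 (chr15:78128732-78128981, + strand) holds 2 matches, at 121 to 116 and at 35 to 30 bases before the start. Rac2 (chr15:78457430-78457679, - strand) holds 5, between 198 and 133 bases before the start in a stretch rich in C and T. Cyba (chr8:123159707-123159956, - strand) and Cybb (chrX:9335571-9335820, - strand) hold none, and neither does the window of Ncf1. Of 21770 promoters of protein-coding genes, 22.921% hold GAGGAA in a window of this length. Other motifs were searched too and are not marked. AGGAAGT, held by 7.12% of these promoters, had matches in the windows of Ncf4 and Rac2. The matches at 120 to 114 bases in Ncf4 and at 173 to 167 bases in Rac2 share letters with marked GAGGAA matches, so they are not separate finds. Only the match at 246 to 240 bases in Ncf4 lies apart from them. CCAAT, held by 36.5%, had matches in the windows of Cybb and Rac2. TATAAA, held by 11.915%, had none in the window of any member. A match is a description of the letters and not a bound site.
Cyba: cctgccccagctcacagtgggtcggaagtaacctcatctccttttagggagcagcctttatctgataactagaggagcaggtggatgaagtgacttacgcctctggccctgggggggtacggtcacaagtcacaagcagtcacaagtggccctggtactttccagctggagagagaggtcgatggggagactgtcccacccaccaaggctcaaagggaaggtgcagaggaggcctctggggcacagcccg
Ncf4: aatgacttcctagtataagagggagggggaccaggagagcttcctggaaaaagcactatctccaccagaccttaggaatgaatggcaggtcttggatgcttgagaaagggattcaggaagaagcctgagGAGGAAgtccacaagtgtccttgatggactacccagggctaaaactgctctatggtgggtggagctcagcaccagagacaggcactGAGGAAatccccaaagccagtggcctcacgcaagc
Rac2: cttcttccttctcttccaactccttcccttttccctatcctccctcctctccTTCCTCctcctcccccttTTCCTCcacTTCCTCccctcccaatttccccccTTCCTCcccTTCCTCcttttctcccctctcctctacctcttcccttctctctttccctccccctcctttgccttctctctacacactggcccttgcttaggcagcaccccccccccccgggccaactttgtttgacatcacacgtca
Cybb: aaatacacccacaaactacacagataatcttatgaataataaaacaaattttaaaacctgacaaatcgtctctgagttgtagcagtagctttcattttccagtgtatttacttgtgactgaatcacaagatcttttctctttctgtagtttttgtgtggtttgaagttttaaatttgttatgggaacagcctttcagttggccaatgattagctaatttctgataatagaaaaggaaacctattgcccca

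The late and early groups had the same antibody treatment and differ in the day set for surgery, and it is open whether late mice had been operated on when bled. Of the 5 members, Cyba rose in the late group, by a log2 fold change of 0.54, or 1.44-fold between the means. Ncf1, Ncf4 and Rac2 had log2 fold changes of similar size, from 0.54 to 0.60, with adjusted p just above 0.05, and Cybb had 0.24. Called higher were 1 of 5 members and 2.50% of the 13315 genes tested. At an unadjusted p under 0.05 stood 4 of 5 members and 14.4% of all genes on the higher side, and above 0 lay the values of 5 of 5 members and of 51.8% of all genes. The members' median was 0.54 and that of all genes 0.014.

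Cyba, the small membrane subunit that the large one needs for its stability, was at 137, 129, 177, 177 and 132 CPM in late 1 to late 5 and at 104, 97.4, 102, 90.2 and 129 CPM in early 1 to early 5. Every late library was above every early one, though late 2, at 128.65 CPM, and early 5, at 128.56 CPM, were all but equal, while late 3 and late 4 stood well above the rest. Its mean was 150.3 CPM ± 24.6 (SD, n = 5) in late and 105 CPM ± 14.5 (SD, n = 5) in early mice, and the fitted log2 fold change was 0.54 with a standard error (SE) of 0.14 and an adjusted p of 0.0475 (edgeR's quasi-likelihood test, adjusted over all genes by the method of Benjamini and Hochberg). Ncf4, the cytosolic subunit whose PX domain binds a phosphoinositide of the phagosome, was at 103, 102, 117, 134 and 92.9 CPM in the late libraries and at 71.7, 61.6, 88.3, 69.6 and 92.3 CPM in the early libraries. The groups again did not overlap, late 5 lying next to early 5. The log2 fold change of Ncf4 was 0.54 (SE 0.15, edgeR adjusted p = 0.0527).

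Rac2, the GTPase that switches the assembled enzyme on, was at 426, 384, 497, 594 and 363 CPM in the late libraries and at 292, 279, 362, 265 and 321 CPM in the early libraries. Late 4 was the highest, and late 5 lay just above early 3, so that the groups did not overlap. Rac2 had a log2 fold change of 0.60 (SE 0.16, edgeR adjusted p = 0.0548). Cyba, Ncf4 and Rac2 are thus 3 of 5 members whose late libraries all exceeded the early ones, where 2.98% of the 13315 genes did so. Ncf1, the organizer subunit that is phosphorylated on activation, was at 198, 164, 219, 266 and 166 CPM in the late libraries and at 127, 129.7, 143, 123 and 175 CPM in the early libraries. Late 2 and late 5 lay below early 5, the highest early library. Its log2 fold change was 0.56 (SE 0.16, edgeR adjusted p = 0.0610).

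Cybb, the catalytic subunit, was at 215, 172, 159.8, 218 and 204 CPM in the late libraries and at 130.4, 151, 116, 192 and 248 CPM in the early libraries. Here the highest of all libraries was early 5, and 0 of 5 late libraries lay above every early one. The log2 fold change of 0.24 (SE 0.20, edgeR adjusted p = 0.520) did not pass the threshold. It was 0.16 without early 1, 0.13 without early 3, 0.44 without early 5 and 0.087 without early 3 and late 5. The spread of Cybb was wide in early mice, at 167 CPM ± 53.3 (SD, n = 5), and narrower in late mice, at 194 CPM ± 26.3 (SD, n = 5).

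**Figure D1:**
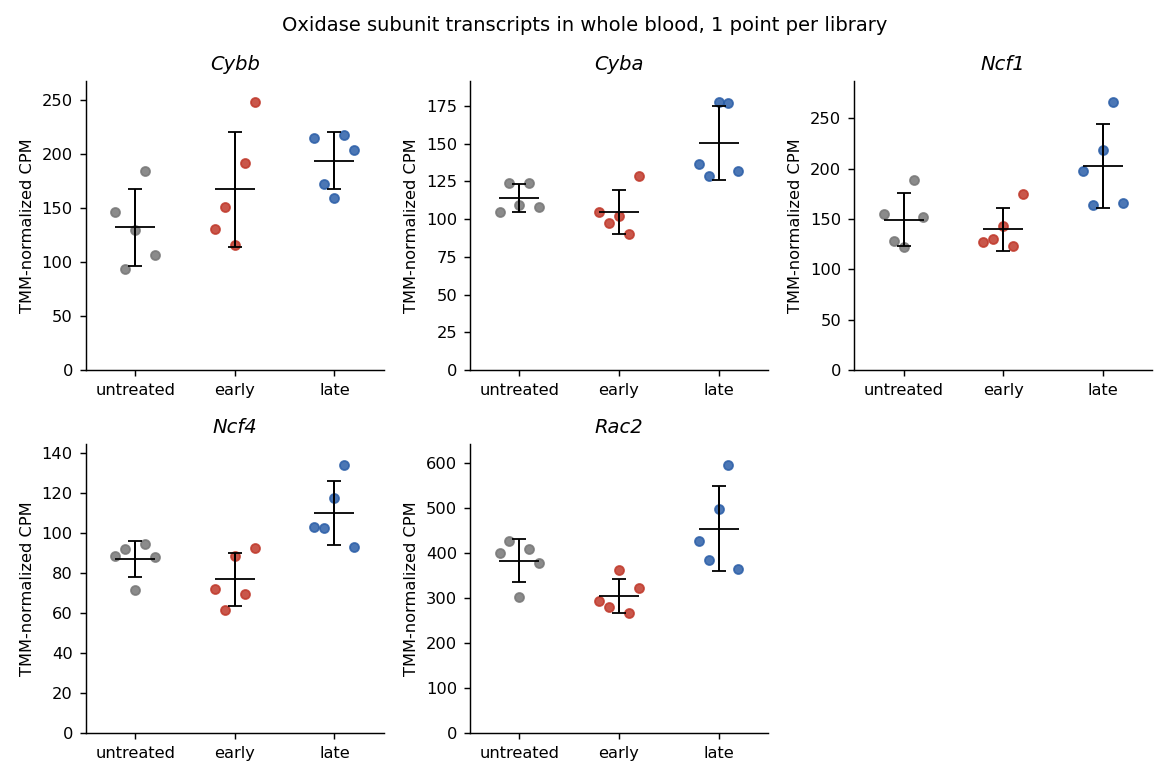
TMM-normalized CPM of each subunit (y axis, starting at 0) in the untreated, early and late groups (x axis), with 1 point per library and the mean ± SD of 5 libraries in black. Late points of Cyba, Ncf4 and Rac2 lie above all early points, while Cybb has its highest point, 248 CPM, in an early library.

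These calls depended on single libraries, on the scaling and on the tool. Cyba lost its call without early 1, early 2 or early 4 (adjusted p = 0.0966, 0.100 and 0.121) and without late 1, late 3, late 4 or late 5 (adjusted p = 0.0783, 0.129, 0.138 and 0.0689, edgeR). Without early 3, Cyba, Ncf4 and Rac2 passed (adjusted p = 0.0438, 0.0281 and 0.0277, edgeR). Without early 5, Cyba, Ncf1 and Ncf4 did (adjusted p = 0.0318, 0.0419 and 0.0418, edgeR). Without late 2 and late 3, which were poor in 18S sequence, 3 late libraries stood against 5 early ones and edgeR called 0 of 5 members and 4 of 13440 genes, with 4 members at an unadjusted p under 0.05 and log2 fold changes of the members from 0.34 to 0.60. On all 10 libraries Cyba was not called with RLE factors in place of TMM (adjusted p = 0.0616, edgeR) or after removal of the hemoglobin genes and Rn18s-rs5 (adjusted p = 0.0559, edgeR), each with 0 of 5 members called and 4 at an unadjusted p under 0.05. The shares of all genes in these fits are not given here. Without early 3 and late 5, the libraries rich in sebaceous genes, Cyba was not called (adjusted p = 0.0560, edgeR) while Ncf4 and Rac2 were (adjusted p = 0.0359 and 0.0352, edgeR). DESeq2's Wald test on all 10 libraries called 4 of 5 members, all but Cybb, and 5.50% of 14344 genes higher. The count of genes that edgeR called in either direction, 663 with all 10 libraries, was 431 without early 1, 353 without early 2, 1610 without early 3, 151 without early 4, 297 without late 1, 145 without late 3, 198 without late 4 and 246 without late 5. With library totals in place of TMM the median of all genes was 0.86 and 5 of 5 members were called, and relative to that median the members had log2 fold changes from 0.29 for Cybb to 0.54 for Rac2.

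To see whether the composition of the enzyme's transcripts differed, each member was expressed as a percent of the summed per-length level of the 5 members in its library, a share that does not depend on the scaling between libraries. Cyba made up 37.3% ± 1.80 (SD, n = 5) of the sum in late and 36.9% ± 1.75 (SD, n = 5) in early mice. Rac2 made up 25.4% ± 1.20 (SD, n = 5) and 24.5% ± 2.48 (SD, n = 5). Ncf4 and Ncf1 took nearly equal shares. That of Ncf4 was 14.6% ± 0.655 (SD, n = 5) in late and 14.4% ± 1.17 (SD, n = 5) in early mice. For Ncf1 it was 14.5% ± 0.752 (SD, n = 5) and 14.3% ± 0.436 (SD, n = 5). Cybb had 8.14% ± 1.55 (SD, n = 5) in late mice, 9.80% ± 2.53 (SD, n = 5) in early mice and 7.02% ± 1.61 (SD, n = 5) in untreated mice. Among the members its share varied most for its size, from 4.84% in untreated 2 to 12.5% in early 4, whereas that of Cyba stayed between 33.6 and 40.0% in the 15 libraries. No share passed the threshold between late and early mice. The largest difference was that of Cybb, -1.66 percentage points (p = 0.262 by an exact permutation test, two-sided, and 0.933 after adjustment for 5 shares), and 1 of 5 late libraries lay below every early one. That of Cybb was -3.24 points with counts in place of counts per kb, -2.87 without early 3 and late 5, the libraries rich in sebaceous genes, -0.978 without late 2 and late 3, -0.979 without early 4 and -1.10 without early 5. The other 4 members had p from 0.492 to 0.944 (exact permutation tests). Untreated mice had a Rac2 share of 27.8% ± 2.04 (SD, n = 5).

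**Figure D2:**
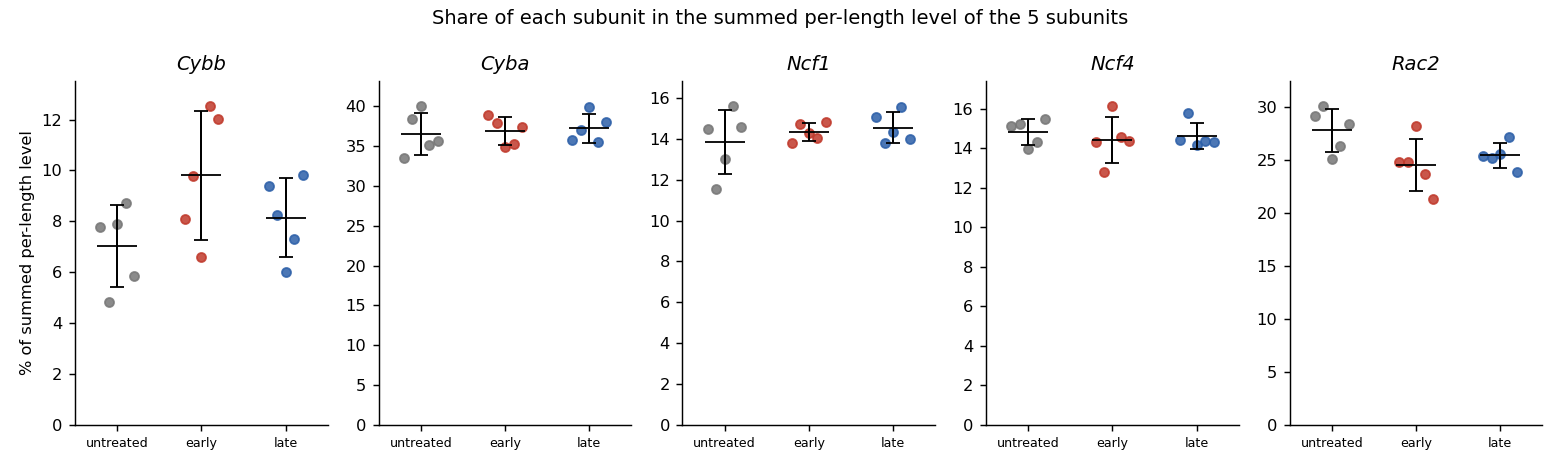
Share of each subunit in the summed per-length level of the 5 subunits (y axis, percent, starting at 0, scaled separately per gene) by group (x axis), with 1 point per library and the mean ± SD of 5 libraries in black. Shares of Cyba lie between 33.6 and 40.0%, and those of Cybb spread from 4.84 to 12.5%.

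The oxidase is most abundant in neutrophils and monocytes, so the levels of their marker genes are given beside these results. The 14 neutrophil markers, led by S100a9 with 33.7% of their sum and with none at 0, summed to 11695, 6216, 12625, 16777 and 8404 CPM in the late libraries and to 4091, 2606, 8209, 3372 and 7187 CPM in the early libraries. In untreated libraries the sum was 8965, 12096, 4803, 12797 and 10052 CPM. Early 2 and early 4 were lowest, and early 3 and early 5 reached the range of the late group. Mmp8, a collagenase of neutrophil granules, and Cd177, a neutrophil surface protein, were called higher in late than in early mice (log2 fold changes 1.81 and 1.31, adjusted p = 0.0496 and 0.0454, edgeR). On the list of 14 neutrophil markers 11 had an unadjusted p under 0.05 in edgeR's test, all higher, and the median was 1.16. DESeq2 called 10 of the 14, and edgeR only Mmp8 and Cd177. Without early 1, 2, 4 or 5 or late 1, 3, 4 or 5 neither was called, with adjusted p of up to 0.128 for Mmp8 and 0.119 for Cd177 (edgeR). The part of these cells in the members' values was not tested.

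The 8 monocyte markers, led by F13a1 with 29.0% of the sum and with none at 0, summed to 1462, 1089, 951, 1461 and 1197 CPM in the late libraries and to 679, 579.9, 592, 837 and 1291 CPM in the early libraries. The highest early library was early 5, the library in which Cybb was highest too. Csf1r, the receptor for the monocyte growth factor, was called higher in late than in early mice (0.75, adjusted p = 0.0425, edgeR), as 1 of 8 on this list, whose median was 0.39 and of which DESeq2 called 2. That call was lost without early 1, 2 or 4 or late 1, 3, 4 or 5 (adjusted p up to 0.127, edgeR). The chemokine receptor gene Ccr2 had 1.04 (adjusted p = 0.0565, edgeR). Of the 8 monocyte markers 3 had an unadjusted p under 0.05 in edgeR's test, all higher.

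Relative to the neutrophil markers, no member had a higher mean in the late group. The summed markers, the denominator that all 5 ratios share, were at 11144 ± 4063 CPM (SD, n = 5) in late and 5093 ± 2462 CPM (SD, n = 5) in early mice. That is a larger rise than any member had, so the signs of the 5 ratios follow from the values above and are not separate results. The log2 ratio of the Rac2 count to the summed count of the 14 markers was -4.78, -4.02, -4.67, -4.82 and -4.53 in late 1 to late 5 and -3.81, -3.22, -4.50, -3.67 and -4.49 in early 1 to early 5. Late 2 lay above early 3 and early 5, and the other 4 late libraries lay below every early library. For Cybb the ratio was -5.76, -5.18, -6.30, -6.27 and -5.37 in the late libraries and -4.97, -4.11, -6.15, -4.13 and -4.86 in the early libraries. Late 3 and late 4 lay below every early library, early 3 came next, and early 2 and early 4 were the highest. The mean for Rac2 was -4.56 ± 0.325 (SD, n = 5) in late, -3.94 ± 0.553 (SD, n = 5) in early and -4.60 ± 0.385 (SD, n = 5) in untreated mice. The mean for Cybb was -5.78 ± 0.513 (SD, n = 5), -4.85 ± 0.830 (SD, n = 5) and -6.17 ± 0.679 (SD, n = 5). The late mean was below the early mean for all 5 members, by differences from -0.93 for Cybb to -0.63 for Rac2, and none passed the threshold (p from 0.0556 to 0.0714 by exact permutation tests, two-sided, each 0.0714 after adjustment, where 5 against 5 cannot go below 0.00794). Of the 5 late libraries, from 2 for Cybb and Cyba to 4 for Rac2 lay below every early library. Without early 3, whose Rac2 and Cybb ratios were the lowest of the early libraries, each of the 5 differences passed (exact permutation tests, adjusted p = 0.0397). Without any other 1 library none did (exact permutation tests, adjusted p from 0.0556 to 0.143), nor with the mean log2 CPM of the markers in place of their sum (adjusted p = 0.183, exact permutation tests). Divided by Ptprc, the gene of the pan-leukocyte protein CD45, Cyba, Ncf1, Ncf4 and Rac2 were instead higher in late mice by 0.25 to 0.29 on the log2 scale (exact permutation tests, adjusted p = 0.0794 for Cyba, from 0.0198 to 0.0265 for Ncf1, Ncf4 and Rac2), and Cybb differed by -0.010.

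**Figure D3:**
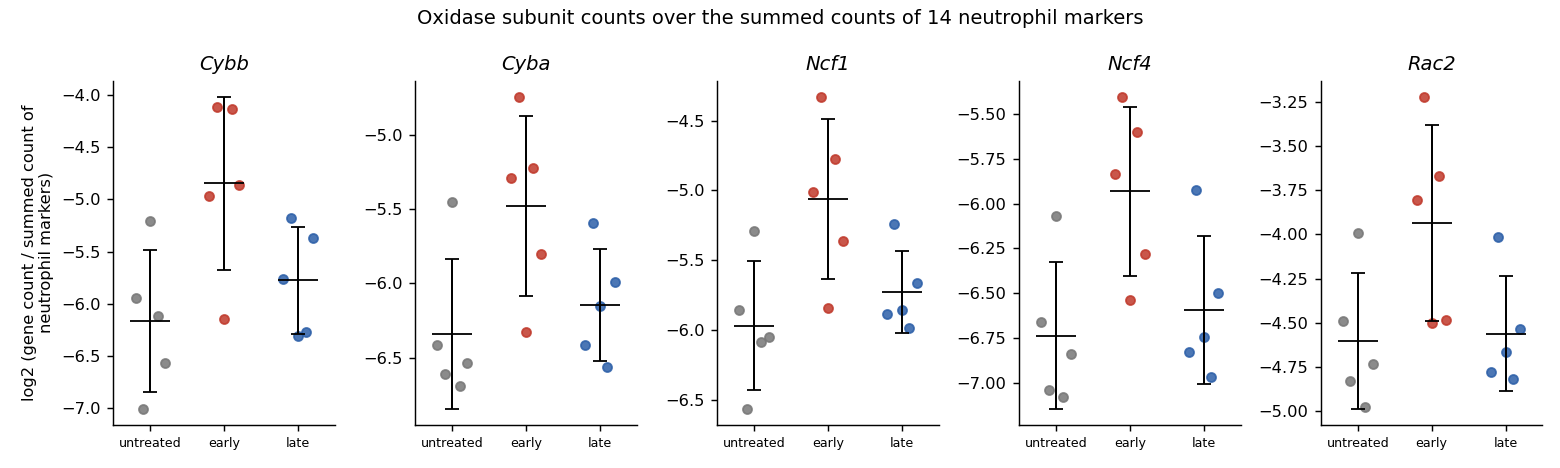
Log2 of each subunit's count over the summed count of 14 neutrophil markers (y axis, scaled separately per gene) by group (x axis), with 1 point per library and the mean ± SD of 5 libraries in black. Early libraries have the highest means. Early 3 lies within the range of the late points for all 5 subunits, and early 5 for all but Cybb.

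Among 13 other genes of the complex, its chaperone and the regulators of its GTPase, edgeR called 2 higher and 0 lower in late than in early mice, with 8 at an unadjusted p under 0.05, all higher, and a median of 0.28, and DESeq2 called 7 higher. The genes that edgeR called were Tiam1 and Prex1, exchange factors that load Rac with GTP. Tiam1 was at 20.9 ± 5.35 CPM (SD, n = 5) in late and 12.5 ± 3.21 CPM (SD, n = 5) in early mice (log2 fold change 0.79, SE 0.20, adjusted p = 0.0428, edgeR). Prex1 was at 195 ± 34.4 CPM (SD, n = 5) and 135 ± 13.8 CPM (SD, n = 5) (0.55, adjusted p = 0.0466, edgeR). The call of Tiam1 was lost without early 1, 2 or 4 or late 1, 3, 4 or 5 (adjusted p up to 0.125), and that of Prex1 also without early 5 (adjusted p up to 0.139, edgeR). Cybc1, the chaperone that the membrane pair needs for its assembly, had 0.38 (adjusted p = 0.0751, edgeR).

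Vav1 and Vav3, exchange factors downstream of tyrosine kinases, had log2 fold changes of 0.47 and 0.59 (adjusted p = 0.0663 and 0.0576, edgeR), and Dock2, an exchange factor of all leukocytes, had 0.013. Rac1, the widely expressed relative of Rac2, was at 252 ± 51.6 CPM (SD, n = 5) in late and 243 ± 52.6 CPM (SD, n = 5) in early mice (0.073, adjusted p = 0.855, edgeR), with a share of 0.561 of its exon bases opposite Daglb. Arhgap25, which speeds GTP hydrolysis by Rac, had 0.27. Values below 0 belonged to Rap1a, a small GTPase found with the membrane pair, and to Hvcn1, the proton channel that balances the charge moved by the oxidase, at -0.32 and -0.18. These 6 genes other than Rac1 had adjusted p from 0.0576 to 0.968 in edgeR's test.

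The other oxidases of the NOX family were near or at 0. Nox3 had 0 counts in the 15 libraries, which allows up to 0.0243 counts per 1000000 of their 123672435 gene counts (3 counts, for counting error alone). Duox1 had 1 count in all, Noxa1 7, Duoxa2 9, Duox2 and Duoxa1 14 each and Nox4 40. Nox1 and Noxo1 were the 2 of 9 that passed the filter in any comparison with the late group, and neither exceeded 2.81 CPM in any library. By edgeR and by DESeq2 0 of them were called, and 0 had an unadjusted p under 0.05. Their log2 fold changes in late against early mice were -0.21 and 0.35 (adjusted p = 0.755 and 0.687, edgeR), and 0.668 of the exon bases of Noxo1 lie opposite other genes. Per length the mean of Noxo1 was 0.537 CPM per kb, against 34.5 CPM per kb for Cybb, the lowest member.

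Genes around the oxidase were grouped by role. Of 18 kinases and lipid enzymes that activate it, edgeR called 2 higher and 0 lower in late than in early mice, with 12 higher and 1 lower at an unadjusted p under 0.05 and a median of 0.40, and DESeq2 called 7 higher. Pak1, a kinase activated by Rac that phosphorylates p47phox, was at 8.19 ± 1.15 CPM (SD, n = 5) in late and 4.79 ± 0.494 CPM (SD, n = 5) in early mice (0.80, adjusted p = 0.0190, edgeR), and Pik3r5, a regulatory subunit of PI3K gamma, had 0.58 (adjusted p = 0.0488, edgeR). Without late 3, 4 or 5 Pak1 was not called (adjusted p up to 0.0604), nor was Pik3r5, which also lost its call without early 1, 2, 4 or 5 or late 1 (adjusted p up to 0.140, edgeR). The protein kinase C gene Prkcd had 0.41 (adjusted p = 0.0803, edgeR). Of 9 genes that supply NADPH none was called by edgeR in this comparison, while 5 had an unadjusted p under 0.05, all higher, DESeq2 called 1, and the median was 0.50. Idh1, a cytosolic dehydrogenase that makes NADPH, had 0.78 (adjusted p = 0.0570, edgeR).

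Of the genes that remove superoxide and peroxide, 14 of 15 were tested. In late against early mice 3 fell and 0 rose by edgeR's test, 4 fell and 2 rose by DESeq2's, and at an unadjusted p under 0.05 stood 4 lower and 5 higher genes. Cat, which breaks down peroxide, was at 107 ± 10.0 CPM (SD, n = 5) in late and 309.6 ± 88.6 CPM (SD, n = 5) in early mice (-1.51, adjusted p = 0.0118, edgeR). Gpx1 and Prdx2, peroxidases abundant in red cells, had -1.67 and -2.06 (adjusted p = 0.0329 and 0.0292, edgeR), and 0.8526 of the exon bases of Gpx1 lie opposite another gene. Cat kept its call without any 1 library, but lost it without both late 2 and late 3 (adjusted p = 0.0509, edgeR). Gpx1 lost its call without early 2, 4 or 5 or late 1, 3, 4 or 5 (adjusted p up to 0.0892) and Prdx2 without early 4 or late 1, 3, 4 or 5 (adjusted p up to 0.0827, edgeR). In the same comparison 5 of 5 tested erythroid markers were called lower, with a median of -2.38, led by Alas2 with 97.3% of the sum of the 6 listed genes, none at 0. That sum was 4888, 3744, 3660.0, 4362 and 2164 CPM in the late libraries and 6812, 19555, 10961, 32057 and 18529.7 CPM in the early libraries. Slc4a1 and Hemgn kept their calls without any 1 library, but lost them without both late 2 and late 3 (adjusted p = 0.0595 and 0.0561, edgeR). Alas2 lost its call without late 3, 4 or 5 and Ank1 without early 4 or late 3 (adjusted p up to 0.0604, edgeR). Mpo, which turns peroxide into hypochlorous acid in neutrophil granules, did not pass the filter on low counts.

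**Figure D4:**
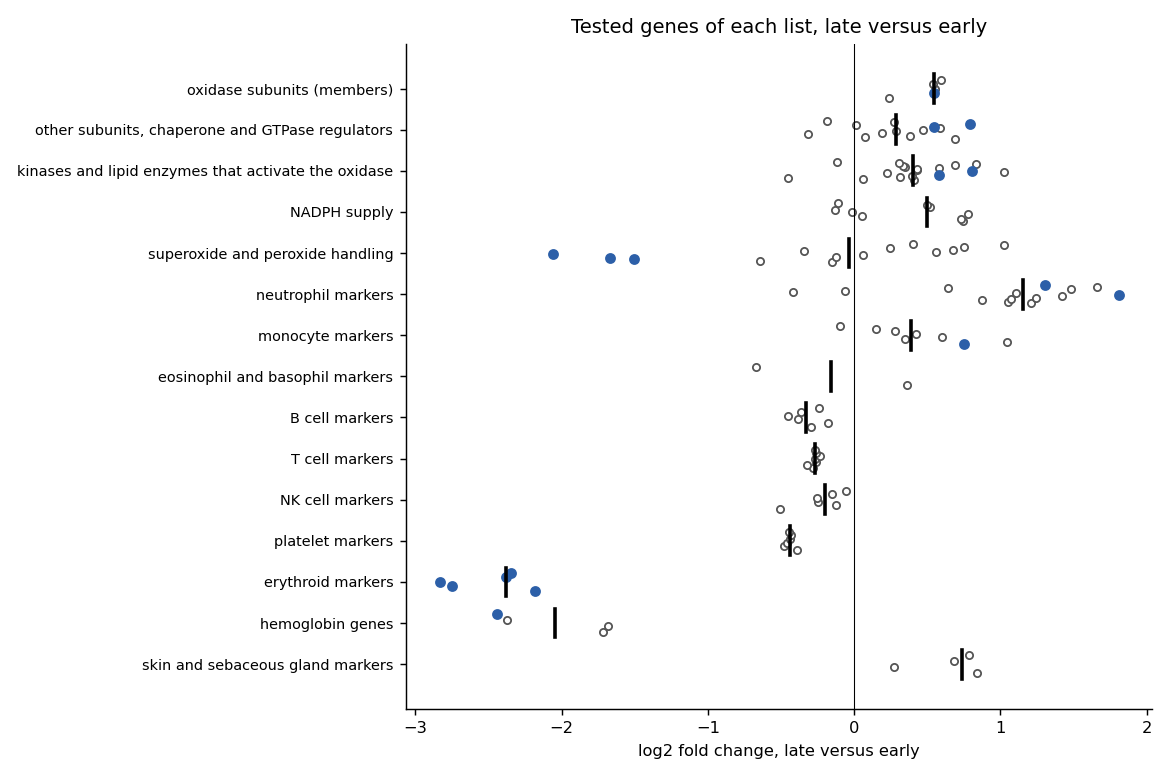
Log2 fold changes of the tested genes of each list in late against early mice (x axis), 1 point per gene, filled where the adjusted p was under 0.05, with the list's median as a black bar. Medians lie above 0 for the members, other subunits, kinases, NADPH supply, neutrophil and monocyte markers, and skin and sebaceous genes. The median of the skin and sebaceous genes, 0.74, is above that of the members, 0.54. The erythroid and hemoglobin lists have medians of -2.38 and -2.05.

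Of the other blood cell markers, 0 of 6 B cell, 0 of 7 T cell, 0 of 6 NK cell, 0 of 6 platelet and 0 of 2 tested eosinophil and basophil genes were called between late and early mice by edgeR. Of these, 1 NK cell and 2 platelet genes had an unadjusted p under 0.05, all lower in late mice, and DESeq2 called 1 eosinophil or basophil gene. The medians of these lists were -0.33, -0.27, -0.20, -0.44 and -0.16. Log2 fold changes were -0.45 and -0.37 for the B cell genes Ms4a1 and Pax5, -0.26 for the T cell receptor gene Cd3g, -0.51 and -0.25 for the NK cell receptor genes Ncr1 and Klre1, -0.48 and -0.39 for the platelet chemokine genes Ppbp and Pf4 (unadjusted p above 0.05 here, the genes having been chosen over the 3 comparisons), and 0.36 and -0.67 for the eosinophil genes Siglecf and Ccr3. Of the 4 hemoglobin genes, Hbb-bt was called lower (-2.44, adjusted p = 0.0392, edgeR), a call that only the fits without early 1 or early 3 kept (adjusted p up to 0.101 in the others), and DESeq2 called all 4. Of the 8 skin and sebaceous genes, 4 were tested, 0 were called by either tool, 1 had an unadjusted p under 0.05, Awat1 was at 0, and Mgst1 and Scd3 had 0.79 and 0.84 (adjusted p = 0.123 and 0.602, edgeR). The 4 tested skin and sebaceous genes all had values above 0, with a median of 0.74, where the members had 0.54. Among the erythroid genes Slc4a1, Hemgn and Ank1 had values from -2.75 to -2.35.

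The comparison of late ND with untreated blood sets the same late libraries against mice without antibody or surgery, so it shares the late group with the comparison above. Called higher by edgeR were 0 of 5 members and 0.989% of 13547 genes, and DESeq2 called 0 members too, and 1.90% of 14768 genes. Values above 0 belonged to 5 of 5 members and 50.4% of all genes, and an unadjusted p under 0.05 on that side to 4 of 5 members and 8.69% of all genes. Untreated libraries 1 to 5 had 146, 93.9, 130.1, 184 and 106 CPM of Cybb, and untreated 4 was the 1 of 5 that reached into the late range. Cybb had the largest log2 fold change of the members in this fit, 0.55 (SE 0.18, edgeR adjusted p = 0.133). Without the libraries rich in sebaceous genes Cybb had 0.47, below Ncf1 with 0.51. Cyba was at 105, 124, 109.6, 124 and 108 CPM in untreated libraries and had a log2 fold change of 0.40 (SE 0.13, edgeR adjusted p = 0.127). Each late library exceeded each untreated one in Cyba, 1 of 5 members, where 2.50% of all genes did so. The median of the members was 0.40 and that of all genes 0.0023.

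Ncf1 was at 155, 128, 123, 189 and 152 CPM in untreated libraries (0.44, edgeR adjusted p = 0.188), and 3 of 5 late libraries lay above all of them. Ncf4 was at 88.4, 91.9, 71.6, 94.5 and 87.9 CPM, with untreated 3 apart below the others (0.34, edgeR adjusted p = 0.183). Rac2 was at 399.6, 426, 302, 407 and 378 CPM, a range that 3 of 5 late libraries exceeded (0.24, edgeR adjusted p = 0.502), and without late 4 its log2 fold change was 0.11. Of the 13 other subunits and regulators, Tiam1 was called higher (0.88, edgeR adjusted p = 0.0312). Prkcd, Idh1 and the monocyte genes Ccr2 and Csf1r were called higher as well, with 0.48, 0.71, 1.11 and 0.73 (adjusted p = 0.0481, 0.0261, 0.0242 and 0.0322, edgeR). Cat, Gpx1 and Prdx2 were again called lower, with -1.51, -1.86 and -2.09 (adjusted p = 0.0242, 0.0271 and 0.0242, edgeR), as were 5 of 5 tested erythroid markers and the T cell gene Cd3g (-0.63, adjusted p = 0.0274, edgeR). None of the 14 neutrophil markers was called by edgeR or DESeq2 or had an unadjusted p under 0.05 here, and their median was 0.32.

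The number of genes called between late and untreated mice rested on single libraries. It was 406 with all 10 libraries, 157 without untreated 1, 199 without untreated 4, 9 without late 3, 1 without late 2 and 0 without untreated 3, late 1, late 4 or late 5, and 0 also without untreated 2, late 2 and late 3, the libraries poor in 18S sequence (3 late against 4 untreated). At an unadjusted p under 0.05 these fits held from 1821 to 2451 genes. Of the calls named here for this comparison, those of Tiam1, Prkcd, Idh1, Csf1r, Cat, Gpx1, Prdx2, Cd3g and the 5 erythroid markers were lost without untreated 3 or any 1 late library, and that of Ccr2 without untreated 3, late 1, 2, 4 or 5, with adjusted p of up to 0.123 (edgeR). Without untreated 1 those of Tiam1, Prkcd, Idh1, Csf1r, Cd3g, Alas2, Hemgn and Ank1 were lost as well, without untreated 2 those of Tiam1, Prkcd, Csf1r and Cd3g, and without untreated 4 those of Prkcd, Cd3g, Alas2, Hemgn and Ank1.

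Between early ND and untreated blood edgeR called 0 of 5 members and 0% of 12151 genes, while 539 genes had an unadjusted p under 0.05 and DESeq2 called 1 gene, not a member. Cybb had a log2 fold change of 0.34 (SE 0.23, edgeR adjusted p = 0.938), and 2 of 5 early libraries lay above all untreated ones. Without early 5 it was 0.15. The other 4 members had values below 0, against 49.6% of all genes above it. Rac2 had -0.33 (SE 0.15, adjusted p = 0.938, edgeR), with 3 of 5 early libraries below all untreated ones, and was the 1 of 5 members with an unadjusted p under 0.05 on the lower side, where 2.33% of all genes stood. Cyba had -0.13, with 4 of 5 early libraries below all untreated ones and early 5 above them all, and was at -0.079 without early 4 and -0.22 without early 5. Ncf4 had -0.18, with 2 of 5 below, and -0.12 without early 2. Ncf1 had -0.097, with 0 of 5 below, and without 1 library ran from -0.19 without early 5 to 0.0028 without untreated 4, where its sign changed. The neutrophil markers had a median of -1.01 and the monocyte markers one of 0.16, and neither tool called any of them, while 8 neutrophil and 0 monocyte markers had an unadjusted p under 0.05, all lower in early mice.

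**Figure D5:**
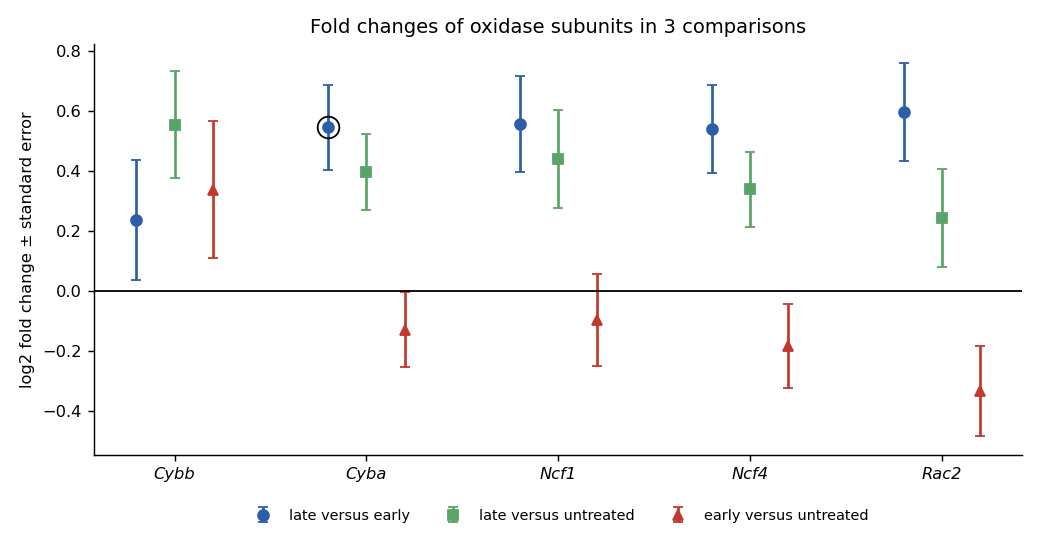
Log2 fold change ± standard error (y axis) of the 5 subunits (x axis) in the 3 comparisons, each fitted to 5 libraries per group; the ringed point has an adjusted p under 0.05. The ring marks Cyba in late against early mice, and only Cybb among the genes drawn has a value above 0 in early against untreated mice.

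For each member, the 3 genes with the highest Pearson correlation of log2 CPM over the 15 libraries were taken from the 9454 genes whose mean count was 50 or more. They were chosen for their height, so r is given as a measure of likeness without a test, over libraries that differ in group, depth and cell content. Those of Cybb were Ifi207, an interferon-inducible gene, Ctss, the cathepsin that trims the class II invariant chain in antigen-presenting cells, and Frmd4a, with r of 0.928, 0.922 and 0.918. After centring within the groups r was 0.893, 0.935 and 0.919. Ncf4 was closest to Fcer1g, the signaling chain of Fc receptors, Pilrb1, a paired receptor of myeloid cells, and Rasgrp4, with r of 0.975, 0.966 and 0.956 and centred r of 0.963, 0.929 and 0.901. Rac2 was closest to Cdc42se1, an effector of the related GTPase Cdc42, Capn1, a calcium-activated protease, and Gmfg, a regulator of actin branching, with r from 0.962 to 0.968 and centred r from 0.924 to 0.963.

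Cyba was closest to Fhip1b, Pstpip1 and Tyrobp, of which Tyrobp encodes the adaptor DAP12, with r from 0.906 to 0.908 and centred r from 0.783 to 0.843. Ncf1 was closest to Cyrib, which binds Rac1, to the aldehyde dehydrogenase gene Aldh3b1 and to Plbd1, a phospholipase B, with r from 0.922 to 0.929 and centred r from 0.853 to 0.881. No gene stood on the lists of more than 1 member, and none of the 15 was itself a member. Spearman's rho of the 15 pairs ran from 0.800 to 0.964. The members were nonetheless alike, apart from Cybb. Among Cyba, Ncf1, Ncf4 and Rac2, r ran from 0.831 for Ncf1 with Rac2 to 0.932 for Ncf4 with Rac2, and centred r from 0.713 to 0.887. Cybb had r from 0.114 with Rac2 to 0.585 with Ncf1, and centred r from -0.0771 to 0.489.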

How the data were processed

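Whole-blood RNA of 15 samples (100 µL each) was sequenced in paired ends, and the authors aligned the reads to GRCm39 with STAR 2.7.9 and counted them per gene with HTSeq 0.13.5, with SAMtools 1.7 also named in the submitters' processing notes. Those notes also list another genome build beside GRCm39, and the annotation release is not given in the sources used here. The deposited values were raw counts per Ensembl gene. Rows of the counter that name no gene were left out of library sizes and tests. Pairs without an annotated feature made up from 50.6 to 55.1% of uniquely aligned pairs, and pairs aligned to several places from 44.1 to 75.2% of all pairs. Of 55416 identifiers, 54749 matched GENCODE M39 on GRCm39, which supplied symbols, positions and lengths, and all 140 symbols listed were found. No column belonged to samples outside the series (0 columns).

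Groups and replicate numbers came from the labels. Members and lists were chosen with earlier results of these data known. Each pair of groups was tested with edgeR 4.0.16 (R 4.3.3) using filterByExpr, TMM factors, the quasi-likelihood test and Benjamini-Hochberg adjustment over all genes, at 0.05. The procedure was tested on simulated data. For shares and log2 ratios an exact permutation test, two-sided, was run in Python 3.11.15. Named were the members, all other subunits, regulators and NOX enzymes, the called genes of each other list (the 4 with the smallest p if more, or the 2 with the smallest p in any of the 3 comparisons if none), and the 3 genes most correlated with each member. A few genes that these rules select are not reported here, though the counts and medians of their lists include them. Alternatives were DESeq2 1.42.0, RLE factors, library totals, other filters, 1 fit over 15 libraries, a replicate block, removal of hemoglobin genes and Rn18s-rs5, other denominators and lengths, and fits without single libraries or libraries poor in 18S sequence. A newer dispersion estimate of edgeR, fits without libraries rich in sebaceous genes and lengths over all exons were chosen after the data had been seen. Blood was collected per animal, and p-values measure the spread between these samples.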

Additional observations from a re-analysis of the deposited data

Results flagged for a closer look

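In 9 of 108 sets of 5 libraries, 1 library lay far from the other 4 for the range of its group, where chance gives about 1 in 20. For the members it was untreated 3 for Ncf4 (71.6 CPM, below its group), late 2 for the share of Ncf4 (15.8%, above its group) and untreated 3 for the log2 ratio of Cyba to the neutrophil markers (-5.45, above its group). Among marker sums, early 4 stood apart for eosinophil and basophil genes (34.6 CPM), untreated 5 for platelet genes (1619 CPM), and untreated 5, early 3 and late 5 for skin and sebaceous genes (1035, 565 and 718 CPM). Untreated 2 held more gene counts than its group, 10796099.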

How the results depend on the processing

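The sign of every member's log2 fold change in late against early and in late against untreated mice was the same under all 21 alternatives to the fit, and the threshold was where they differed. In late against early mice edgeR called 663 genes, 1439 by DESeq2, 9060 with library totals, 1282 without a filter on low counts, 4 without the libraries poor in 18S sequence, 1214 without those rich in sebaceous genes and from 145 to 1610 without 1 library. Members called, 1 in the fit reported, were 4 by DESeq2, 0 with RLE factors, 5 with library totals, 4 without a filter, 2 with at least 10 counts in every library, 3 in 1 fit over 15 libraries, 0 without hemoglobin genes and Rn18s-rs5, 0 without the libraries poor in 18S sequence, 3 with the newer dispersion estimate, 2 without the sebaceous-rich libraries (Ncf4 and Rac2, with Cyba not called) and from 0 to 3 without 1 library. In each of those with 0, 4 members had an unadjusted p under 0.05. Over the 11 alternatives other than leaving out 1 library, from 4 to 9060 genes were called. An unadjusted p under 0.05 went with 2780 to 9706 genes in these, and with 2380 to 3850 without 1 library. Where the genes called in a fit are not given, its count of members has no share of all genes beside it and is not a result about the members. With library totals the median of all genes was 0.86, and in late against untreated mice 0.91, where 7574 genes and 5 members were called. There, edgeR called 406 genes, DESeq2 818, the fit without the libraries poor in 18S sequence 0 (1917 at an unadjusted p under 0.05), and those without 1 library from 0 to 593. In early against untreated mice the 0 genes became 1 by DESeq2 and 3 with library totals, and the log2 fold change of Ncf1, -0.097, ran from -0.19 to 0.0028 without 1 library.

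Libraries of the same replicate number share only a number by the labels. Their deviations from the group means correlated from -0.18 to 0.46 between late and early, from 0.029 to 0.58 between late and untreated and from -0.24 to 0.080 between early and untreated, and 2, 5 and 0 of 10 libraries correlated best with their own number, so the numbers were not taken as pairs. With the numbers as a block, late against early mice had 673 genes and 0 members called (4 members at an unadjusted p under 0.05), and late against untreated mice 607 genes and 1 member, Cybb (adjusted p = 0.0496, edgeR). Early against untreated mice had 0 genes and 0 members (400 genes and 0 members at an unadjusted p under 0.05).

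Log2 ratios to Ptprc in place of the neutrophil markers were 0.25 for Cyba, 0.26 for Ncf1, 0.26 for Ncf4 and 0.29 for Rac2 in late minus early mice. Without 1 library the ratios to the neutrophil markers differed by from -1.26 to -0.75 for Cybb, from -0.88 to -0.48 for Cyba, from -0.86 to -0.48 for Ncf1, from -0.83 to -0.53 for Ncf4, from -0.77 to -0.45 for Rac2. Their adjusted p (exact permutation tests) ran from 0.0397 to 0.143 without 1 library and was 0.183 for the mean log2 CPM of the markers, from 0.0694 to 0.0714 without S100a8 and S100a9, from 0.0893 to 0.107 without the libraries poor in 18S sequence and 0.0571 without the sebaceous-rich ones. Differences in share, none past the threshold, ran without 1 library from -2.46 to -0.979 for Cybb, from -0.295 to 0.888 for Cyba, from -0.0364 to 0.410 for Ncf1, from -0.232 to 0.591 for Ncf4, from 0.0841 to 1.80 for Rac2 percentage points. With counts in place of counts per kb the share of Cybb differed by -3.24 points, and that of Rac2 by 2.04 in place of 0.894. Over the length of all exons these were -2.10 and 1.42, and without the sebaceous-rich libraries -2.87 and 2.20. Cyba differed by -0.435 and Ncf4 by -0.0663 without the libraries poor in 18S sequence, and Cyba by -0.328 without the sebaceous-rich ones. The cause was not tested. Late libraries held more gene counts than early ones, and the lowest count of a member in any library was 193, of Ncf4.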
